A study of Rattus norvegicus with 6 samples.

Results

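Semaphorins, plexins, ephrins, Eph receptors, Slits, Robos, netrins and Unc5 receptors were read in the rat mammary tumour cell line LN4D6 with and without transfected CREB3L1. The genes were taken by symbol: every probe set whose single annotated symbol named a member of these families was kept. The families themselves were chosen with earlier results of these data known. This gave 90 probe sets for 53 genes, out of 31042 probe sets and 14217 genes in the comparison. The 3 untransfected samples received no construct, and the 3 CREB3L1 samples are the same line transfected with CREB3L1, a transcription factor anchored in the endoplasmic reticulum membrane that is freed by proteolysis. No group with an empty vector was among the samples, so transfection and CREB3L1 cannot be told apart, and the sources used here give neither the species of the construct, nor the time after transfection, nor whether the cells are 1 clone. Values are log2 RMA expression values from 1 Affymetrix 3' array per sample, and differences are CREB3L1 minus untransfected.

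These families carry short-range and secreted signals that steer axons, vessels and epithelial cells by pushing the cytoskeleton of the receiving cell towards collapse or extension. Semaphorins signal through plexins, with neuropilins as partners for most of the secreted class. Ephrins are held on the cell surface and signal to Eph receptor tyrosine kinases on a neighbouring cell. Slits bind Robo receptors, and netrins bind DCC, neogenin and the Unc5 receptors. In mammary epithelium several of these genes are known for branching, cell sorting and invasion.

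CREB3L1 replicate 3 stood apart. Across all probe sets its Pearson correlation with the other arrays was 0.984 to 0.989, against 0.996 to 0.999 among the other 5. Its Gapdh 3' probe set exceeded the 5' one by 4.77, against -0.16 to -0.10 elsewhere. For beta-actin the same gap was 7.44, against 2.35 to 3.41 elsewhere. Results that this array moves are given with and without it. The probe set of Creb3l1 itself lay at 3.36 ± 0.02 and 3.39 ± 0.03 (SD, n = 3 in each group) and may not read the construct, so this value is no check of the transfection. Of the markers set for the labelled cell type, the keratin gene Krt8 and the junction gene Tjp1 were above background out of 12 epithelial genes, while Epcam, Cdh1, Krt18 and Krt19 were not. Myoepithelial Krt5, Krt14 and Acta2 were above it (3 of 7), as were 2 of 10 fibroblast genes (Vim, Col3a1), 2 of 8 immune genes (Csf1r, Cd14), 2 of 9 neural genes (Snap25, Map2) and 0 of 8 endothelial genes.

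Of the 53 guidance genes, 1 rose and 1 fell. Sema6a, a transmembrane semaphorin, was 1.62-fold higher in the CREB3L1 cells, and Sema3d, a secreted semaphorin, fell from a level already below background. Epha2, an Eph receptor tyrosine kinase known from epithelial tumours, was higher on all 3 CREB3L1 arrays and did not pass the test with all arrays weighted equally, but did without CREB3L1 replicate 3 and with array weights. The other 50 genes did not pass with 6 equally weighted arrays or without that one; with array weights Sema3c, a secreted semaphorin, also passed (adjusted p = 0.0418). Calls are at an adjusted p below 0.05 from limma with Benjamini-Hochberg adjustment over all 31042 probe sets, of which 1.39% were called (0.425% higher and 0.963% lower). The guidance families gave 2 of 90, or 2.22%, and by gene 2 of 53 (3.77%) against 2.1% of all genes. These shares are near the background, so the count is no result about the families. Without CREB3L1 replicate 3, 3 of the 90 probe sets were called (3.33%) against 3.98% of all probe sets, and 3 of the 53 genes (5.66%) against 5.72% of all genes.

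**Figure D1:**
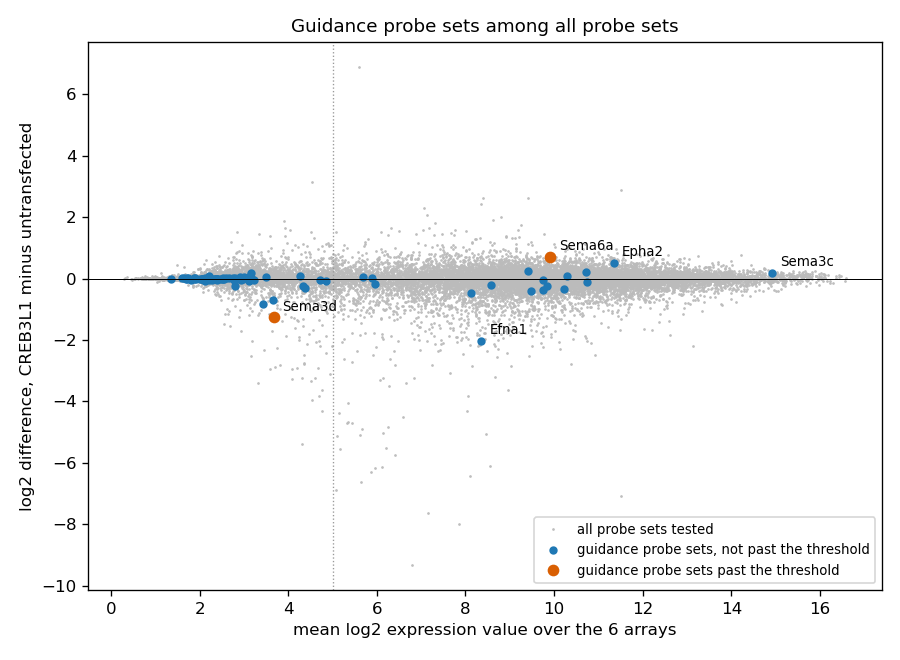
Log2 difference, CREB3L1 minus untransfected (vertical axis), against the mean log2 value over the 6 arrays (horizontal axis), with 1 point per probe set, all 31042 in grey, the 90 guidance probe sets in colour, and a dotted line at the background level of 5. Most guidance probe sets lie left of that line close to a difference of 0, and the 2 past the threshold are Sema6a at 0.70 and Sema3d at -1.26.

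The background level was set at a log2 value of 5. By that level 15 of the 53 genes were above background in at least 1 group, read by 18 of the 90 probe sets (20%), against 38.9% of all probe sets. Those genes were 4 of 17 semaphorins (Sema3c, Sema4a, Sema4b, Sema6a), 3 of 8 plexins (Plxna1, Plxna3, Plxnb2), 4 of 12 Eph receptors (Epha2, Epha4, Epha10, Ephb4), 3 of 5 ephrins (Efna1, Efna5, Efnb1) and 1 of 3 Slits (Slit2). None of 3 Robo genes, 2 netrin genes or 3 Unc5 genes reached it. A probe set below the level does not show that its gene is silent, since 6 of the 15 genes had a further probe set below it. In RNA from whole cultures, fewer cells of a type and less RNA per cell cannot be told apart. A further 13 family genes of the RefSeq table, among them Efnb2, Ephb2, Sema7a, Ntn4 and Robo4, were not analysed here.

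**Figure D2:**
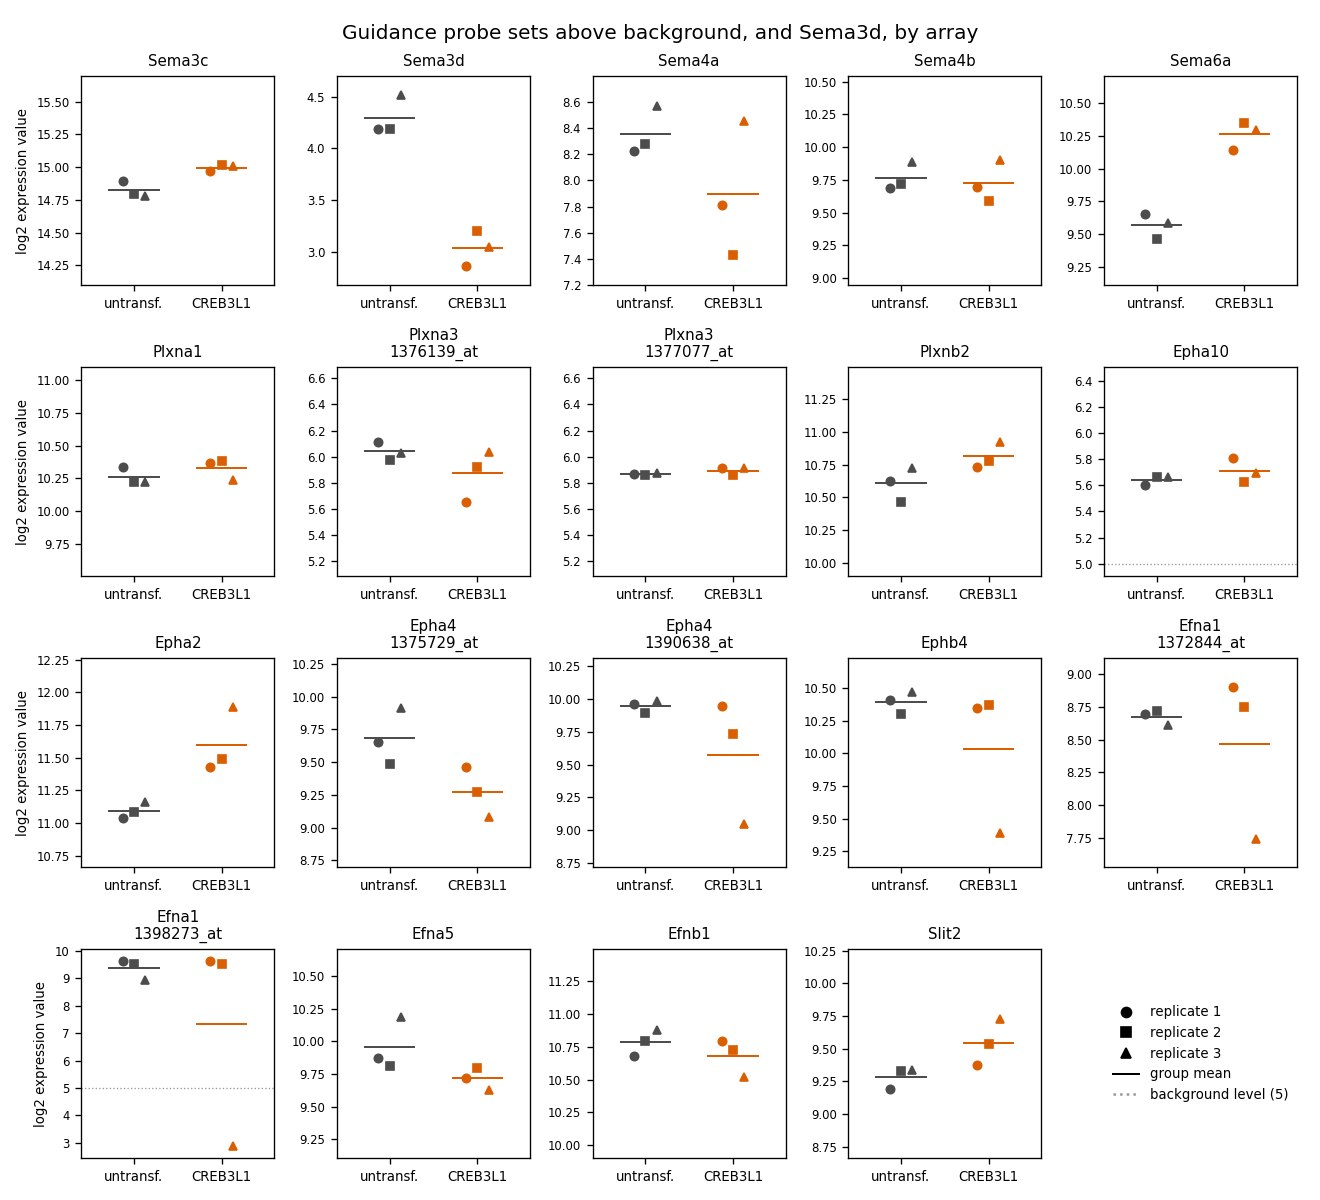
Log2 expression value on each array (vertical axis, a scale of its own in each panel) for the 18 guidance probe sets above background and for Sema3d, with untransfected samples in grey, CREB3L1 samples in orange, 1 symbol shape per replicate and a bar at each group mean. The groups are separate for Sema6a, Sema3d, Epha2 and Sema3c, among others, and the second Efna1 probe set falls to 2.86 on CREB3L1 replicate 3 alone.

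Sema6a encodes a membrane-bound semaphorin whose known receptors are plexins A2 and A4. Its probe set 1382868_at read 9.65, 9.46 and 9.58 in the untransfected samples and 10.15, 10.35 and 10.30 in the CREB3L1 samples. All 3 CREB3L1 values were above all 3 untransfected ones, and CREB3L1 replicate 3 lay between the other 2 of its group. The difference was 0.70 ± 0.08 (SE; 95% interval 0.51 to 0.89; adjusted p = 0.0216), and 0.68 ± 0.09 without that array (adjusted p = 0.0217). The call was lost with arrays centred on their medians (adjusted p = 0.0603) and with a mean-variance trend (0.0547). It was lost as well without any 1 untransfected array or without CREB3L1 replicate 2 (0.0782 to 0.105). The other 4 Sema6a probe sets lay below background in both groups, at 2.19 to 4.38 on single arrays, with differences of -0.02 to 0.07. With the mean of all 5 probe sets in its place the gene was not called. The genes of its receptors, Plxna2 and Plxna4, were below background on all 5 of their probe sets.

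Sema3d encodes a secreted class 3 semaphorin. Its single probe set read 4.19, 4.19 and 4.52 in the untransfected samples and 2.86, 3.20 and 3.05 in the CREB3L1 samples. The groups did not overlap, and both lay below the background level, so no fold is given. The difference was -1.26 ± 0.13 (95% interval -1.59 to -0.94; adjusted p = 0.0188), and -1.27 ± 0.15 without CREB3L1 replicate 3 (adjusted p = 0.0177). Leaving out any 1 of the other 5 arrays took the call away (adjusted p = 0.0506 to 0.0844), with differences of -1.34 to -1.15.

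Sema3c, another secreted semaphorin, known as a product of mammary and other epithelial tumours, was far above background on every array. It read 14.90, 14.79 and 14.78 in the untransfected samples and 14.97, 15.01 and 15.01 in the CREB3L1 samples. The groups did not overlap, but the difference of 0.17 ± 0.04 (95% interval 0.07 to 0.28) did not pass the test (adjusted p = 0.208). Array weights, which count arrays that deviate less more heavily, brought it past the threshold (adjusted p = 0.0418). Of the 2 class 4 genes above background, which encode transmembrane semaphorins, Sema4a read 8.22, 8.28 and 8.57 against 7.81, 7.43 and 8.46. CREB3L1 replicates 1 and 2 were below all untransfected values and replicate 3 was among them. The difference was -0.46 ± 0.28 (adjusted p = 0.862), and -0.74 ± 0.15 without replicate 3 (adjusted p = 0.0832). Sema4b was at 9.76 ± 0.11 and 9.73 ± 0.16, with a 95% interval of -0.29 to 0.21 for the difference. The 13 remaining semaphorins lay below background on all of their probe sets. Apart from Sema3d, the widest gap among them was in Sema3f, a repellent of vessels and tumour cells, at -0.70 ± 0.28 on 1 of its 2 probe sets (adjusted p = 0.525).

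Plexins are the semaphorin receptors, single-pass proteins with a GTPase-activating domain inside the cell. None of the 8 genes passed limma's test, and 0 of their 17 probe sets had an unadjusted p below 0.05 (9.66% of all probe sets did). Plxnb2, a receptor for class 4 semaphorins, read 10.63, 10.47 and 10.73 in the untransfected and 10.74, 10.78 and 10.93 in the CREB3L1 samples. The groups touched without overlapping, and the 95% interval of the difference was -0.01 to 0.42 (adjusted p = 0.552). Plxna1 pairs with neuropilins to read secreted semaphorins. Its probe set 1374453_at stood at 10.26 ± 0.07 and 10.33 ± 0.08, with an interval of -0.08 to 0.21. Plxna1 probe sets 1375482_at and 1395453_at were below background, at group means of 1.69 and 1.74. The 2 Plxna3 probe sets, both near 6, gave -0.17 ± 0.11 and 0.03 ± 0.03. The Plxna2, Plxna4, Plxnb1, Plxnc1 and Plxnd1 probe sets were all below background.

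Eph receptors are the largest family of receptor tyrosine kinases. None of the 12 genes passed with 6 arrays. Of their 18 probe sets 3 had an unadjusted p below 0.05 (9.66% of all probe sets did), those of Epha2, Ephb3 and 1 of Epha4. Epha2 read 11.04, 11.09 and 11.16 in the untransfected samples and 11.43, 11.49 and 11.89 in the CREB3L1 samples. Every CREB3L1 value was above every untransfected one, and CREB3L1 replicate 3 was the highest, 0.43 above the mean of the other 2. With 6 arrays the difference was 0.51 ± 0.13 (95% interval 0.18 to 0.83; adjusted p = 0.225). Without CREB3L1 replicate 3 it was smaller and passed the test, at 0.36 ± 0.05, which is 1.29-fold (interval 0.23 to 0.49; adjusted p = 0.0285). Array weights gave 0.38 and an adjusted p of 0.0307.

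CREB3L1 binds DNA through a basic leucine zipper of the CREB/ATF type, which is known for sites built on the letters TGACG. The stretches before the annotated starts of Epha2 and Sema3d, which both hold TGACG, are shown as context for those genes. Sema6a, the guidance gene that rose, is not shown, and its promoter held no TGACG. Epha2 did not pass with all arrays weighted equally, so the 2 stretches are not those of the 2 called genes. Each stretch is the 250 bases before the RefSeq start in assembly GRCr8. It is written 5′ to 3′ on the gene's strand, with TGACG on either strand in capitals. That of Epha2 is chr5:158888379-158888628 on the plus strand, and that of Sema3d is chr4:23460972-23461221 on the minus strand.
Epha2: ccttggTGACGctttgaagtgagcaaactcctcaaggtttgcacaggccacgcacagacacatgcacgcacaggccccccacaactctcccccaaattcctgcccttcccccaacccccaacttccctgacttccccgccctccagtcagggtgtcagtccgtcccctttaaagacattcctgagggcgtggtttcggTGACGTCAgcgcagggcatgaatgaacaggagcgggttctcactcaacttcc
Sema3d: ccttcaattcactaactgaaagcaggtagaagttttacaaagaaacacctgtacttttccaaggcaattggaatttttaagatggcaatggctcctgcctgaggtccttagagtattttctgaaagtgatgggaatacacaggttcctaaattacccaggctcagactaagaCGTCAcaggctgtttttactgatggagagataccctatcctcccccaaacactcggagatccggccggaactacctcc
The Epha2 stretch held the full palindrome TGACGTCA, the cAMP response element, starting 52 bases before the start, and a lone TGACG 244 bases before it. The Sema3d stretch held 1 TGACG on the opposite strand, beginning 78 bases before the start. Promoters were on hand for 39 of the 53 genes and covered the 250 bases before and 50 after the start. Epha2 was the single gene of the 39 with TGACGTCA, which 1.83% of all 33469 promoters held on either strand. TGACG, which is part of that palindrome, was found for 7 of the 39 genes and in 21.2% of all promoters. The sequences TGACGTGG (0.595% of all promoters) and CCACGTGG (0.666%) were found in 0 of the 39, and the Sema6a promoter held none of the 4 motifs. A match describes letters and is not evidence of binding, and these arrays measure transcript level only.

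Epha4, an Eph receptor that accepts ephrins of both classes, had 4 probe sets, 2 of them above background. Probe set 1375729_at read 9.65, 9.49 and 9.91 in the untransfected samples and 9.47, 9.27 and 9.08 in the CREB3L1 samples. Its groups did not overlap, and the difference of -0.41 ± 0.15 did not pass (adjusted p = 0.431). Probe set 1390638_at gave 9.94 ± 0.05 against 9.95, 9.73 and 9.04, where the lowest value is that of CREB3L1 replicate 3. Without that array its difference was -0.10 ± 0.07 instead of -0.37 ± 0.24. Ephb4, a receptor of ephrin-B2 known from veins and mammary epithelium, read 10.41, 10.30 and 10.47 against 10.35, 10.37 and 9.39. Again CREB3L1 replicate 3 alone was low, and the 95% interval of the difference narrowed from -1.07 to 0.36 with 6 arrays to -0.18 to 0.12 without it. Epha10, whose kinase domain is predicted to be inactive, was just above background at 5.64 ± 0.04 and 5.71 ± 0.09. The other 8 Eph receptor genes were below background on all of their probe sets, Ephb3 among them at 3.07 ± 0.07 and 3.25 ± 0.06.

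Ephrins are the ligands of Eph receptors, attached to the membrane by a lipid anchor in class A and by a transmembrane segment in class B. None of the 5 genes passed limma's test. Of their 8 probe sets 0 had an unadjusted p below 0.05 (9.66% of all probe sets did). Efna1, a main ligand of EphA2, had 2 probe sets. Probe set 1398273_at read 9.63, 9.54 and 8.93 in the untransfected samples and 9.64, 9.51 and 2.86 in the CREB3L1 samples. CREB3L1 replicates 1 and 2 lay within or at the edge of the untransfected range, and replicate 3 stood at -6.71 relative to their mean. The difference of -2.03 ± 1.94 rested on that array and became 0.21 ± 0.22 without it (adjusted p = 0.9998 and 0.966). Probe set 1372844_at of the same gene read 8.90, 8.75 and 7.74 in the CREB3L1 samples and 8.68 ± 0.06 in the untransfected ones, with differences of -0.21 ± 0.32 and, without replicate 3, 0.15 ± 0.06. Efna5 read 9.87, 9.81 and 10.18 against 9.72, 9.80 and 9.63, a difference of -0.24 ± 0.11 (adjusted p = 0.656). Efnb1, an X-linked ligand of EphB receptors, read 10.68, 10.80 and 10.88 against 10.80, 10.73 and 10.52, and the 95% interval of its difference was -0.34 to 0.13. A second probe set of each of Efna5 and Efnb1 was below background, as were Efna4 and Efnb3.

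**Figure D3:**
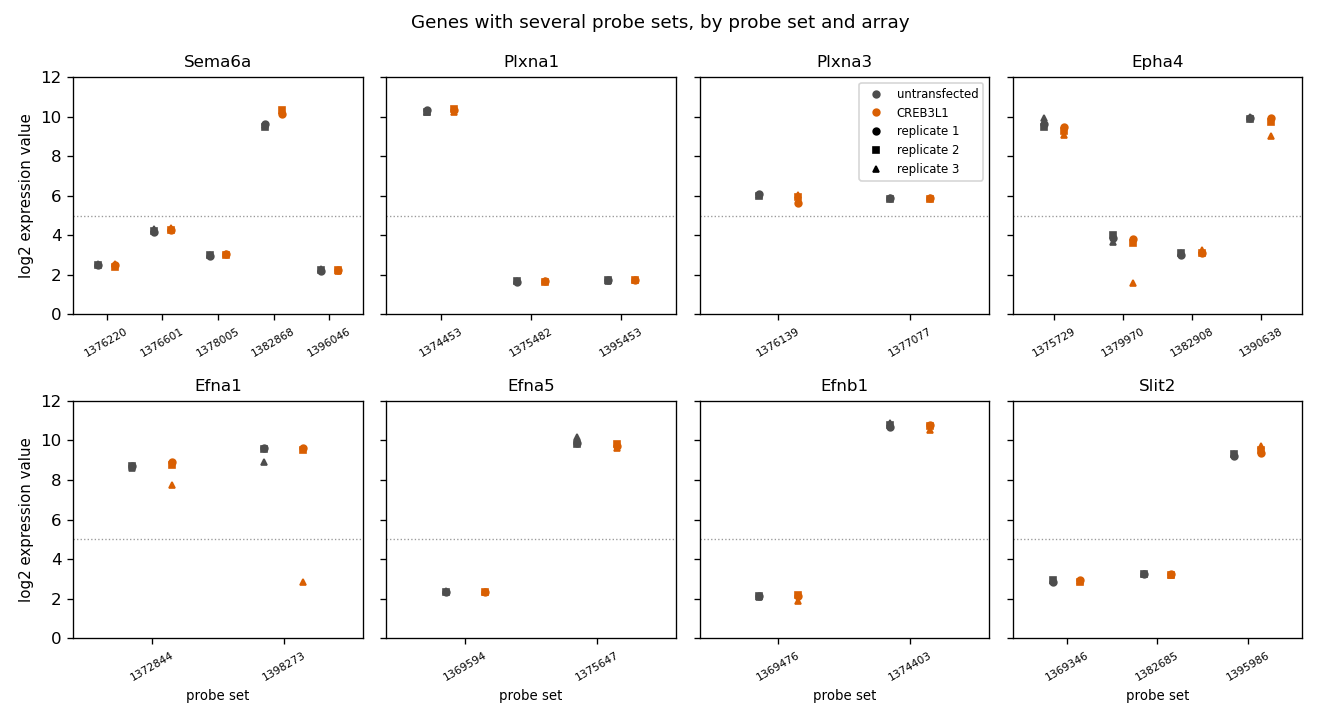
Log2 expression value (vertical axis) by probe set (horizontal axis, numbers without their suffix) for the 8 guidance genes with several probe sets of which at least 1 was above the background level of 5 (dotted line), with untransfected samples in grey, CREB3L1 samples in orange and 1 symbol shape per replicate. In 6 of the 8 genes 1 or more probe sets stay below the line while another reads above it. Among the probe sets above background, CREB3L1 replicate 3 is the low point for Efna1, Epha4, Efna5 and Efnb1. On the dim Epha4 probe set 1382908 it is the high point.

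Of the 18 guidance probe sets above background, CREB3L1 replicate 3 was the lowest of the 6 arrays for 7, and lay more than 0.5 below the mean of CREB3L1 replicates 1 and 2 for 4 (both of Efna1, 1 of Epha4, and Ephb4). For Sema4a alone it lay more than 0.5 above that mean. This is the array with the wide gap between 3' and 5' control probe sets, and the part of that gap in these values was not tested. Intervals were within 1 log2 unit either way for 14 of the 18 probe sets with 6 arrays and for 17 of the 18 without it. The median difference over the 90 guidance probe sets was -0.01, as it was over all probe sets. Untransfected and CREB3L1 arrays did not overlap for 12 of the 90 (13.3%), against 14.3% of all probe sets.

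**Figure D4:**
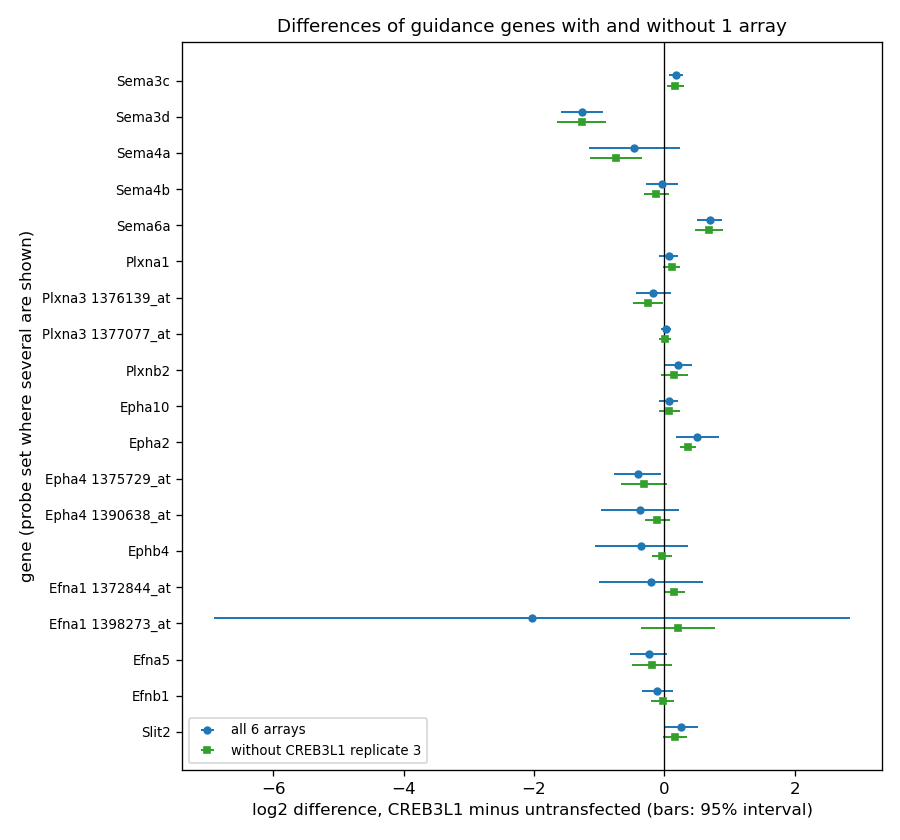
Log2 difference, CREB3L1 minus untransfected, with its 95% interval from limma (horizontal axis), for each guidance probe set above background and for Sema3d (vertical axis), with all 6 arrays in blue and without CREB3L1 replicate 3 in green. Sema6a and Sema3d keep their differences near 0.70 and -1.26 without that array, while the interval of the second Efna1 probe set shrinks from -6.91 to 2.85 down to -0.36 to 0.78.

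Slit2, a secreted repellent also known to limit branching of mammary ducts, was the Slit gene above background. Probe set 1395986_at read 9.19, 9.33 and 9.33 in the untransfected samples and 9.38, 9.54 and 9.73 in the CREB3L1 samples. The CREB3L1 values were all above the untransfected ones, with a difference of 0.26 ± 0.10 (95% interval 0.01 to 0.51; adjusted p = 0.491), and 0.17 ± 0.07 without CREB3L1 replicate 3. The other 2 Slit2 probe sets, Slit1 and Slit3 were at 3.26 or lower on every array. Its receptors Robo1, Robo2 and Robo3 were read by 5 probe sets at 1.96 to 3.04. Netrin genes Ntn1 and Ntn5 lay at 1.85 to 2.44 on 4 probe sets. Of the Unc5 receptors Unc5a and Unc5c were below background on every array. Unc5b came close, with 4.27, 4.33 and 5.04 against 4.23, 4.18 and 4.27 on 1 of its 2 probe sets, where untransfected replicate 3 alone reached the background level. In the Slit, Robo, netrin and Unc5 families 0 genes passed limma's test. Of their 19 probe sets 1, that of Slit2, had an unadjusted p below 0.05 (9.66% of all probe sets did).

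Partners of these receptors were read from a list of co-receptors and further ligands and receptors (27 measured of 29). A list of downstream signalling genes (55 of 58) was read as well, with 1 probe set per gene. For genes with several, such as Nrp1 (2), Nrp2 (2) and Neo1 (3), only the brightest is given, and the others are not described here. Of the first list, 0 rose and 1 fell (3.7%, against 2.1% of all genes). In that list 5 had an unadjusted p below 0.05 (14% of all genes did). The gene that fell was Nrp1, the neuropilin that holds secreted semaphorins for the class A plexins. It read 10.72, 10.88 and 10.85 in the untransfected samples and 9.69, 9.65 and 9.14 in the CREB3L1 samples, with no overlap and an adjusted p of 0.0310 (0.00206 without CREB3L1 replicate 3). The call was lost without any 1 of the other 5 arrays. Nrp2, its paralog, read 12.01, 11.90 and 12.23 in the untransfected samples and 11.64, 11.58 and 12.35 in the CREB3L1 samples. CREB3L1 replicate 3 was above all untransfected values, and the other CREB3L1 values were below all of them. The Nrp2 difference was -0.19 ± 0.23 and did not pass (adjusted p = 0.9998). Without CREB3L1 replicate 3 it was -0.43 ± 0.10 and did not pass either (adjusted p = 0.113). Dcc, the classical netrin receptor, was below background, at 2.50 to 2.63.

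Of the 55 downstream genes, 0 rose and 0 fell in limma's test, and 4 had an unadjusted p below 0.05 (14% of all genes did). The smallest p belonged to Ptpn13, a phosphatase that acts on ephrin-B signalling, at -0.22 ± 0.05 (adjusted p = 0.183), and to Trio, a guanine nucleotide exchange factor in netrin signalling, at 0.38 ± 0.10 (adjusted p = 0.221). Without CREB3L1 replicate 3, where 5.72% of all genes were called, 1 downstream gene rose, and 1 gene of the first list rose and 2 fell. These 3 beside Nrp1 were named after their values were seen. Rnd1, a small GTPase that binds plexins, rose by 0.68 (adjusted p = 0.00392), and with 6 arrays it was at 8.13, 8.13 and 7.23 in the CREB3L1 samples against 7.39, 7.48 and 7.49. Neo1, the netrin and RGM receptor neogenin, rose by 0.44 (adjusted p = 0.0211). Gpc1, a heparan sulfate proteoglycan that binds Slit, fell by 1.13 (adjusted p = 0.0135). With 6 arrays none of the 3 passed (adjusted p = 0.953, 0.405 and 0.179). Among the neural markers, Snap25 fell by 1.06 (adjusted p = 0.00291) from just above background, and Map2, the other neural gene above it, was higher by 0.95 without overlap (adjusted p = 0.0791), and by 1.12 without CREB3L1 replicate 3 (adjusted p = 0.00206). The summed log2 values of the 9 neural genes were 34.0 to 34.8 in untransfected and 33.6 to 34.9 in CREB3L1 samples. That sum cannot show a change, since Snap25 and Map2 moved in opposite directions and the rest lay below background. Map2 has 2 probe sets, and only the brighter is given. The part of the neural genes in the guidance values was not tested.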

How the data were processed

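Each of the 6 samples was hybridised to 1 array. The submitters' processing notes name RMA and Partek 6.6 for the values the authors deposited, which were taken as log2 expression values from their range, since no source used here states the log base. Of 31099 probe sets, 57 controls were set aside. Symbols came from the platform annotation, and all 90 guidance probe sets matched the RefSeq table of GRCr8 with 0 changed symbols. Where 1 value per gene was needed, the probe set brightest on average over all 6 arrays was taken.

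The comparison used limma 3.58.1 (R 4.3.3, 1 mean per group, eBayes, two-sided, all 6 arrays), with Benjamini-Hochberg adjustment over 31042 probe sets. It was also run on simulated data with independent noise on each array. Those data hold no array that stands apart as CREB3L1 replicate 3 does, so that run does not cover its effect. The labels do not tell whether samples were separate cultures, so a p-value reflects the spread between these samples alone, which may be technical, and 3 arrays per group limit the precision. The members and lists were chosen with earlier results of these data known. Values per array are given for guidance genes past the threshold with or without CREB3L1 replicate 3, for those above background that differed by 0.58 or more, for the brightest gene of each family, and for most others above background. Partner genes were named if past the threshold with 6 arrays, or else the 2 with the smallest p. Rnd1, Neo1 and Gpc1 were added because they passed without CREB3L1 replicate 3, and Nrp2 and Dcc were named outside this rule. Alternatives were renormalisation, median centring, a filter on dim probe sets, other eBayes settings, array weights, gene means, other background levels and leaving out each array.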

Additional observations from a re-analysis of the deposited data

How the results depend on the processing

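Of all probe sets, 431 passed the threshold, against 1552 with array weights and 144 to 1235 with 1 array left out, the highest without CREB3L1 replicate 3. Of the guidance probe sets and of the guidance genes 2 passed, Sema3d and Sema6a in both counts. With array medians centred and with a mean-variance trend 1 passed in both counts, Sema3d. With dim probe sets left out before the fit 1 passed in both counts, Sema6a, since Sema3d is among the probe sets that filter removes. With array weights 4 passed in both counts, Epha2 and Sema3c being added. With probe sets averaged by gene 1 guidance gene passed, Sema3d, which has a single probe set. Leaving out 1 array gave 0 to 3 guidance probe sets and 0 to 3 guidance genes, with 3 only without CREB3L1 replicate 3, 1 without CREB3L1 replicate 1 and 0 without any of the other 4. Of the partner genes 1 passed, against 3 with array weights and 0 to 4 with 1 array left out. No difference of a named guidance gene that passed the threshold in any of these fits changed sign. Quantile normalisation and robust eBayes kept both guidance calls. With a background level of 4 or 6 in place of 5, 25 or 16 guidance probe sets were above it instead of 18. The precision is that of 3 arrays per group. Of the guidance probe sets, 13.3% had groups that did not overlap and 2.22% were called, against 14.3% and 1.39% of all probe sets. No paired analysis was possible because the labels give no replicate numbers, and those used here follow accession order and so were not used to pair samples. The 5' probe set of the spiked-in dap RNA read 6.12, 7.51 and 4.67 in untransfected and 6.19, 7.56 and 2.08 in CREB3L1 replicates 1 to 3, and whether samples were processed in pairs is not stated and was not tested.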

Other observations

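The measured genes next to Sema3d, Sema6a and Epha2 in the chromosome order of GRCr8, 5 on each side with 1 probe set each, were read as a description. Of all genes, 2.1% passed with 6 arrays, 5.72% passed without CREB3L1 replicate 3, and 14% had an unadjusted p below 0.05 with 6 arrays. Counts out of 10 are too small to set against these shares. Around Sema3d, whose nearest measured neighbours on one side are the semaphorin genes Sema3a and Sema3e, 1 of 10 fell and 0 rose, with a median difference of 0.01. That gene was Crot, a peroxisomal carnitine acyltransferase and the only one of the 10 above background, with a difference of -0.36 (adjusted p = 0.0280). Around Sema6a 0 of 10 passed limma's test and 2 had an unadjusted p below 0.05. Without CREB3L1 replicate 3, 2 of them fell, Hsd17b4 by 0.72 (adjusted p = 0.0497) and Tnfaip8 by 0.47 (adjusted p = 0.0442). Of these 10 genes 8 were above background, with differences from -0.76 in Hsd17b4, a peroxisomal enzyme, to 0.21 in Srfbp1. Around Epha2 0 of 10 passed and 0 had an unadjusted p below 0.05, with differences of -0.13 to 0.17, and 0 of 10 passed without CREB3L1 replicate 3. Around Sema3d the count was again 1 without that array.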
